A study of Mus musculus with 12 samples.

Results

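An early and a late time point of an in vitro neuronal differentiation were compared in mouse adherent neural stem (ANS) cells, a neural stem cell culture derived from embryonic brain at E14.5 and grown as a monolayer. T1 cells were collected 2 days after the change to medium D1, which held FGF at 10 ng/ml, EGF at 2 ng/ml, N2 at 0.5% and B27 at 1%. T3 cells were collected 10 days after the change to medium B, which held FGF-2 at 10 ng/ml, BDNF at 20 ng/ml, N2 at 0.5% and B27 at 1%, on laminin-coated dishes, with no EGF listed. The members were chosen by these labels, as 3 T1 libraries (replicates 1, 2 and 3) and 2 T3 libraries (replicates 1 and 4), 5 of the 12 libraries of the series. The 4 T2 libraries, from cells 2 days after the change to medium B, are given beside them as values with no test. The text of the study counts the time in medium B as additional days after T2, whereas the labels count from the change of medium. The number of cell lines or derivations behind the libraries was not stated. They are described as biological replicates, without further detail on how the cultures were separated, and p-values measure the spread between these libraries.

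FGF and EGF keep neural stem cells in division, and their reduction or removal lets the cells leave the cycle. BDNF, acting through the receptor Ntrk2, favours survival and maturation of young neurons. In a culture that matures, genes of the progenitor state and of Notch signalling usually give way to genes of the axon, the synapse and ion channels, while a part of the cells may go on dividing or take a glial fate.

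The libraries held between 8910724 counts on genes (T3 replicate 4) and 16631614 (T1 replicate 3). Across genes, log2 CPM (CPM being the counts of a gene scaled to a common library size with TMM factors) correlated at 0.987 to 0.993 between the T1 libraries and at 0.968 between the T3 libraries. Of 12499 genes tested with edgeR's quasi-likelihood test, 812 (6.5%) changed, 525 (4.2%) upward and 287 (2.3%) downward from T1 to T3, at a Benjamini-Hochberg adjusted p under 0.05. The rises were the larger changes, with a median log2 fold change of 1.84 against -0.91 for the falls, and 222 rises but only 28 falls reached 4-fold. Over all genes tested, called or not, both T3 libraries lay above all T1 libraries in 18.2% and below them in 22.6%. The groups overlapped in none of the 525 rises and 287 falls that were called, so that for a called gene this adds no support. The mean of the T2 libraries lay between those of T1 and T3 in 514 of the 525 genes that rose, in 260 of the 287 that fell and in 6737 of all 12499 genes. Most calls were lost at this threshold when any T1 library was left out, each such fit holding 2 T1 and 2 T3 libraries. Without T1 replicate 1, 7 rises and 11 falls remained past the threshold, without replicate 2 they were 7 and 10, and without replicate 3 they were 49 and 65. At an unadjusted p under 0.05 of the same test, these 3 fits held 1113, 1243 and 1300 rises and 730, 896 and 960 falls. With all 5 libraries there were 1596 and 1199. Without T3 replicate 1 the counts were 1211 and 860 and without T3 replicate 4 they were 679 and 336, the lone T3 library being assumed to vary like the T1 libraries. No gene called with all 5 libraries was called in the opposite direction in any of these fits. These are bulk samples, in which fewer cells of a type and less RNA per cell cannot be told apart.

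The genes are described by 34 lists of known function, with 1149 members in the files, 909 of them tested, 157 higher and 53 lower at T3. Calls in a list are to be read beside the 4.2% of all genes that rose and the 2.3% that fell. A gene that passed the filter on low counts through a single group could be called only in the direction toward that group. Such genes are among these calls.

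**Figure D1:**
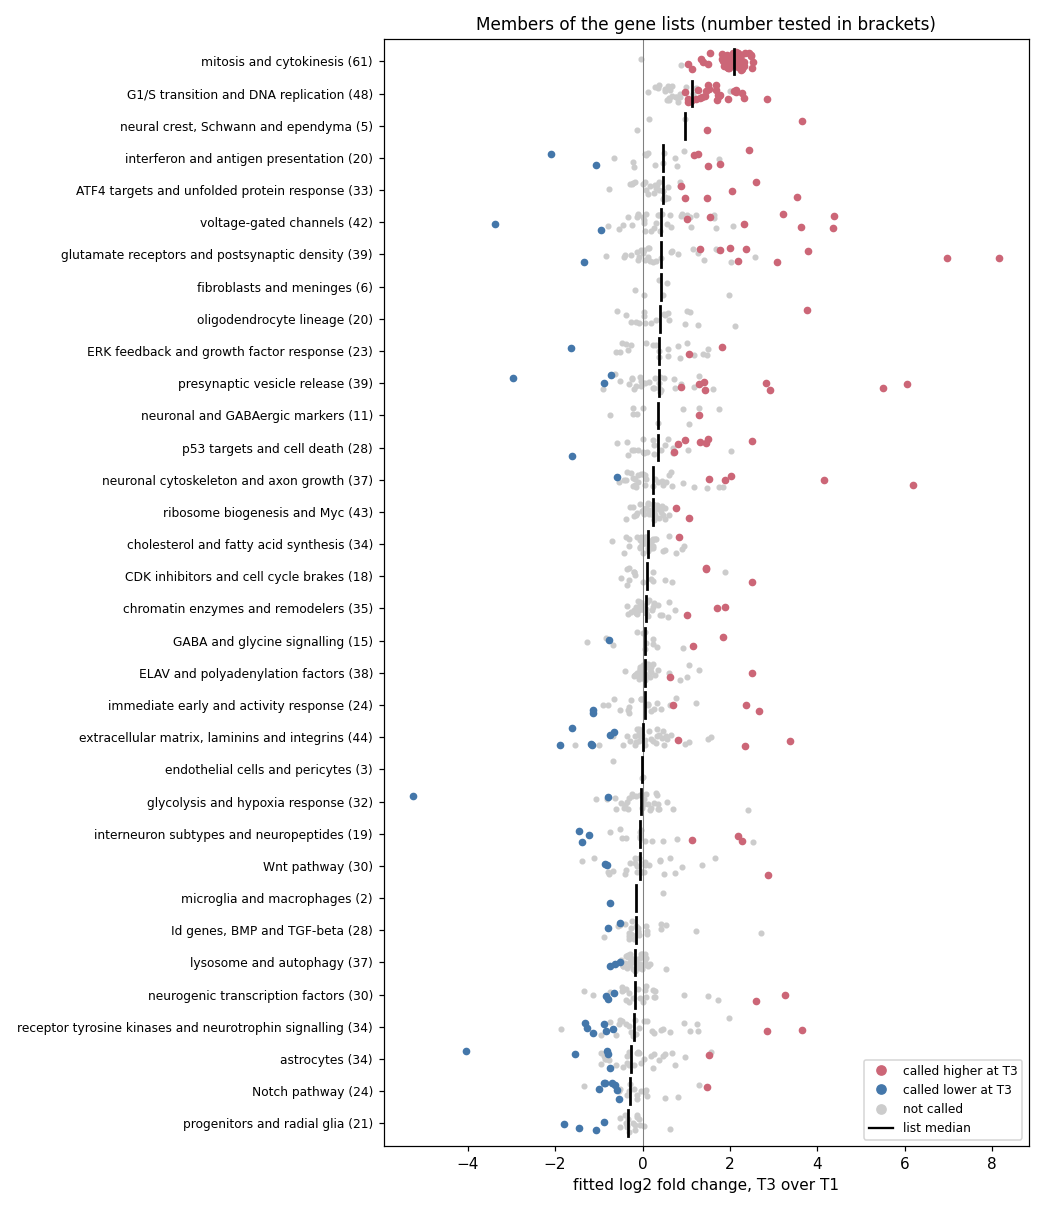
Fitted log2 fold change from T1 to T3 (horizontal axis) of each tested member of the gene lists (1 row a list, the number tested in brackets), with genes called higher at T3 in red, lower in blue, not called in grey and the list median as a black bar. The medians of the mitosis list, at 2.10, and of the replication list, at 1.13, lie to the right of the other lists with 10 or more members tested, and those of the progenitor and Notch lists lie to the left, at -0.34 and -0.29.

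Cell division genes were higher at T3 than at T1. Of 61 mitosis and cytokinesis genes, all tested, 57 rose (93.4%, against 4.2% of all genes) and none fell. The median log2 fold change was 2.10, against 0.0033 over every gene in the fit. In 60 of the 61 genes both T3 libraries lay above all T1 libraries, against 18.2% of all genes. For the 57 called genes this adds no support, since it held in every called rise. Many such genes carry in their promoters a cell cycle homology region (CHR), the element TTTGAA that the DREAM and MuvB complexes bind, with a CCAAT box upstream. In RefSeq promoter windows of 300 bases on GRCm38.p6 (250 before to 50 after the transcript start, 53 windows for 51 of the 61 genes), TTTGAA was found on either strand in 71.7% of windows, against 17.9% of all 32851 promoter windows. CCAAT on either strand was found in 73.6% against 37.4%, and both in 62.3% against 6.95%. The following stretches of 30 bases, upstream of the start, belong to 4 called genes of small p in which the motif lay there. Not every chromosome entered this choice, so a called gene of smaller p may be missing. Capitals mark the CHR letters on the strand of the gene, TTCAAA being the reverse complement. Ckap2l (log2 fold change 1.99, adjusted p = 0.0209) and Ect2 (2.13, adjusted p = 0.0209) were chosen for this after their values were seen. The stretches lie at chr5:45669883-45669912 (plus strand), chr19:37376351-37376380 (plus), chr2:129297225-129297254 (minus) and chr3:27153975-27154004 (minus).
Ncapg: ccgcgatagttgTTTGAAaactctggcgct
Kif11: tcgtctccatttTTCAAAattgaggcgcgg
Ckap2l: ttattggcgaatTTCAAAgtcgcggaagcc
Ect2: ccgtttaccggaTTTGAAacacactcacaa
A match of letters describes the sequence and does not show that a factor bound there.

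Kif11, the kinesin that pushes spindle poles apart (mm9 chr19:37450893-37496349, plus strand), was at 21.9, 16.1 and 11.4 CPM in T1 replicates 1, 2 and 3 and at 47.3 and 92.2 CPM in T3 replicates 1 and 4. Both T3 libraries were above all T1 libraries, as in every called rise, and T3 replicate 4 was the highest. The log2 fold change was 2.12 ± 0.34 (SE, n = 3 and 2; adjusted p = 0.0199). Ncapg, a subunit of the condensin complex that compacts chromosomes, was at 13.5, 9.77 and 9.40 CPM at T1 and at 28.4 and 46.0 CPM at T3 (log2 fold change 1.81 ± 0.26, adjusted p = 0.0166). Cenpe, a kinesin of the kinetochore, went from 14.8, 10.1 and 8.10 CPM to 34.3 and 52.8 CPM (2.03 ± 0.29, adjusted p = 0.0166). In both genes T1 replicate 3 was the lowest of the T1 and T3 libraries and T3 replicate 4 the highest. Kif18b, a kinesin that shortens microtubules, was at 16.5, 13.6 and 6.81 CPM at T1 and at 43.5 and 59.8 CPM at T3 (2.12 ± 0.34, adjusted p = 0.0197). Spc25, part of the kinetochore complex that holds microtubules, rose by 2.18 on the log2 scale, and Mybl2, the Myb family factor that activates mitotic genes, by 1.94. The order of the libraries recurred through the list. All 61 genes were higher in T3 replicate 4 than in replicate 1, with a median log2 ratio of 1.07. The summed CPM of the list was 1306, 981 and 715 in T1 replicates 1, 2 and 3, between 947 and 1649 in the T2 libraries, and 2314 and 4550 at T3. With T1 replicate 1 or 2 left out 0 of the 61 genes were called higher, and without T1 replicate 3 only 1 was. With T3 replicate 1 left out 60 were called, and with T3 replicate 4 left out, 38.

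**Figure D2:**
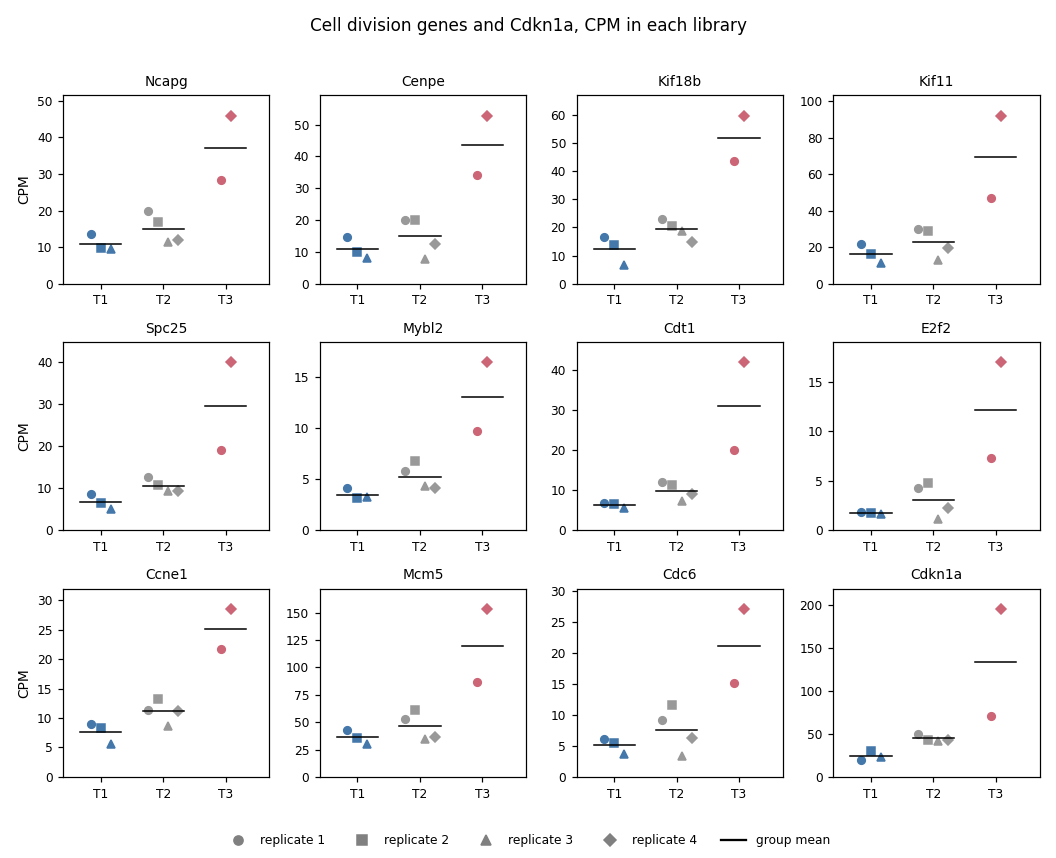
CPM (vertical axis, from 0) of 11 cell division genes and of Cdkn1a in each T1, T2 and T3 library, with 1 symbol a replicate number and a black bar at the group mean. In each panel both T3 libraries lie above the 3 T1 libraries and replicate 4 lies above replicate 1, as with Kif11 at 92.2 against 47.3 CPM.

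Of 48 genes of the G1/S transition and of DNA replication, all tested, 25 rose (52.1%, against 4.2% of all genes) and none fell. The median log2 fold change was 1.13. The fitted change was above 0 in all 48. Promoter windows of these genes (48 windows for 40 genes) held the CHR letters in 12.5%, below the 17.9% of all windows. They more often held E2F letters, TTTCCCGC in 16.7% against 1.07% of all windows and TTTGGCGC in 18.8% against 0.514%, on either strand. E2F factors drive genes of S phase. The letters are shown in capitals, as read on the strand of the gene, for Mcm5 and Cdc6. These are called members in which the letters lay upstream of the start, and not every chromosome entered this choice either. The stretches lie at chr8:75109349-75109378 (plus strand) and chr11:98908002-98908031 (plus strand) of GRCm38.p6.
Mcm5: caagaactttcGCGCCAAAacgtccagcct
Cdc6: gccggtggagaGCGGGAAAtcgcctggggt
Mcm5, a subunit of the replicative helicase, was at 43.2, 35.1 and 30.1 CPM at T1 and at 86.3 and 153 CPM at T3 (1.77 ± 0.25, adjusted p = 0.0169). Cdc6, which loads that helicase, was at 6.18, 5.42 and 3.65 CPM at T1 and at 15.2 and 27.2 CPM at T3 (2.10 ± 0.32, adjusted p = 0.0189). Cdt1, its partner in loading, was at 6.70, 6.64 and 5.57 CPM and then at 20.0 and 42.0 CPM (2.33 ± 0.31, adjusted p = 0.0150). The T1 libraries lay close together in Cdt1, and T3 replicate 4 was again above replicate 1. E2f2, an activating E2F factor, rose by 2.84 on the log2 scale, Ccne1, the cyclin that starts S phase, by 1.76 and Cdc45, which activates the helicase, by 2.13. In all 48 genes T3 replicate 4 was above replicate 1. Without T1 replicate 1, 2 or 3 the genes called higher were 0, 0 and 1, and without T3 replicate 1 or 4 they were 47 and 19.

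Of 18 tested genes that brake the cycle, of 19 listed, 3 rose (16.7%, against 4.2% of all genes) and none fell. The median log2 fold change was 0.10. Cdkn1a, the p21 inhibitor of cyclin-dependent kinases, was at 19.4, 29.99 and 22.7 CPM at T1 and at 71.0 and 196 CPM at T3 (2.51 ± 0.39, adjusted p = 0.0194). Ccng1, cyclin G1, a target of p53, was at 134, 150 and 139 CPM and then at 275 and 481 CPM (1.46 ± 0.22, adjusted p = 0.0184). Rbl1, the pocket protein p107, was at 13.8, 12.4 and 9.22 CPM and then at 20.1 and 43.1 CPM (1.46 ± 0.33, adjusted p = 0.0466). All 3 were highest in T3 replicate 4. Cdkn1b, the p27 inhibitor, did not pass the test, at 140, 147 and 139 CPM at T1 and 102 and 114 CPM at T3 (-0.36 ± 0.11, adjusted p = 0.0944). Among genes that answer growth factors, Ccnd1, cyclin D1, which carries cells through G1, rose from 86.5, 85.1 and 67.6 CPM to 187 and 364 CPM (1.83 ± 0.27, adjusted p = 0.0173), and Myc, a driver of growth, from 104, 121 and 111 CPM to 191 and 268 CPM (1.07 ± 0.16, adjusted p = 0.0184). None of these 5 calls held without T1 replicate 1, 2 or 3, and that of Rbl1 was also lost without T3 replicate 4.

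The markers used to name neurons mostly did not pass the test. Of 16 neuronal and GABAergic markers 11 were tested, 1 rose (9.09%, against 4.2% of all genes) and none fell. The median log2 fold change was 0.35. Syp, the synaptic vesicle protein synaptophysin, was at 8.10, 7.86 and 7.05 CPM at T1 and at 22.5 and 14.0 CPM at T3 (1.29 ± 0.24, adjusted p = 0.0280), a call lost without T1 replicate 1, 2 or 3. Dcx, the microtubule protein of migrating young neurons, was at 203, 251 and 211 CPM and then at 548 and 270 CPM (0.92 ± 0.27, adjusted p = 0.0928). Both T3 libraries lay above T1, but replicate 4 only slightly. Tubb3, the neuronal tubulin, was at 151, 155 and 167 CPM at T1 and at 176 and 89.0 CPM at T3 (-0.21 ± 0.25, adjusted p = 0.691), so that the T3 libraries lay on either side of T1. Mtap2, the dendritic microtubule protein, was at 1906, 2215 and 1677 CPM and then at 1937 and 1306 CPM (-0.22 ± 0.20, adjusted p = 0.593). Elavl3, a neuronal RNA-binding protein, was at 12.1, 13.7 and 9.47 CPM and then at 36.9 and 10.95 CPM (1.07 ± 0.44, adjusted p = 0.211). Its T3 replicate 1 was above all T1 libraries and replicate 4 was among them. Elavl4 (0.35), Rbfox3 (1.28), Nefl (1.76) and Dlx1 (-0.73), given as log2 fold changes, did not pass the test either, with adjusted p of 0.588, 0.201, 0.0742 and 0.184.

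Gad1, one of the enzymes that make GABA (mm9 chr2:70391129-70440071, plus strand), was at 35.8, 41.0 and 33.3 CPM at T1, at 57.1, 54.6, 44.4 and 48.1 CPM at T2, and at 48.4 and 23.8 CPM at T3 (log2 fold change 0.02 ± 0.27, adjusted p = 0.978). T3 replicate 1 lay above and replicate 4 below the T1 libraries, and the 4 T2 libraries lay above all T1 libraries. Gad2, the other GABA-making enzyme, Slc32a1, the vesicular GABA transporter, and the ganglionic eminence factors Dlx2, Dlx5 and Dlx6 were not tested, none reaching 3 counts in a library. The counts of these defining markers of GABAergic neurons and their progenitors were thus at or near 0 in both groups, although the T3 labels describe the cells as GAD+. Whether reads of these genes were lost in alignment or counting was not tested. In 8 of the 11 tested markers T3 replicate 1 was above replicate 4, the opposite of the order in the mitosis list.

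**Figure D3:**
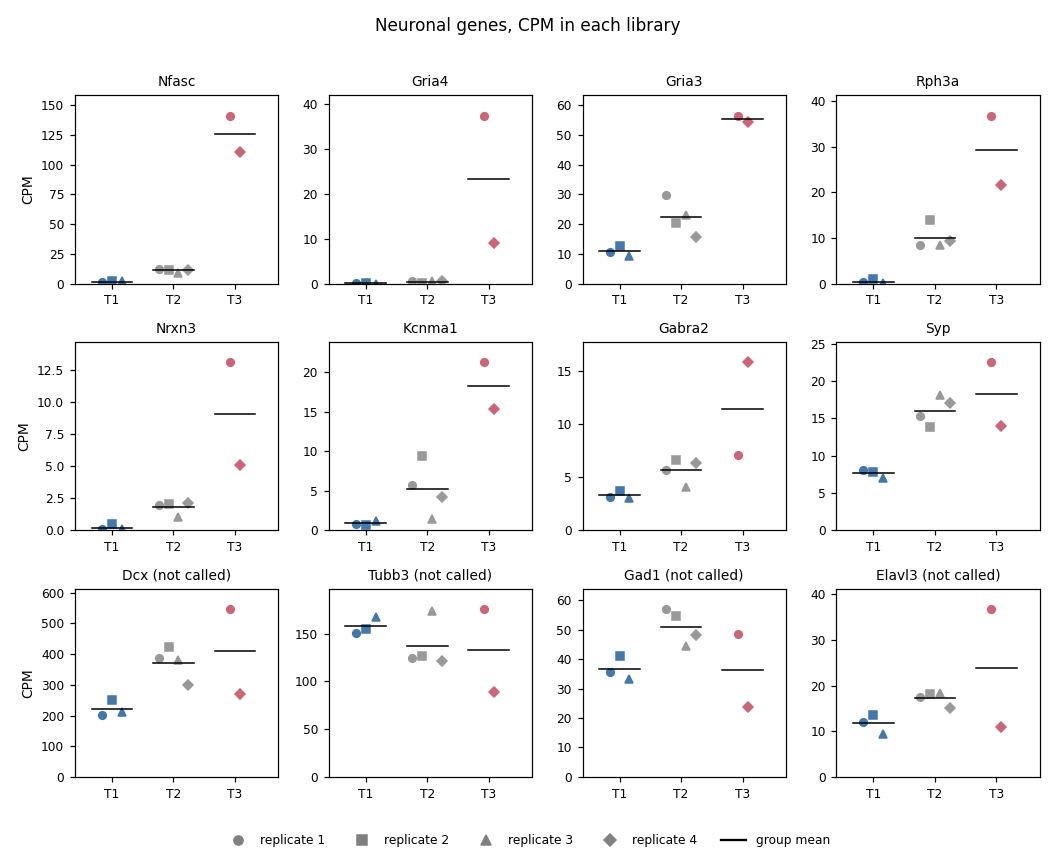
CPM (vertical axis, from 0) of 8 called genes of the axon, the synapse and ion channels and of 4 neuronal markers that were not called, in each T1, T2 and T3 library, with 1 symbol a replicate number and a black bar at the group mean. Which cells of these bulk samples held the RNA was not tested. Nfasc stands at 141 and 110 CPM at T3 against at most 2.17 CPM at T1, while the T3 libraries of Gad1 and Tubb3 lie on either side of the T1 libraries.

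The 12 largest rises by the rule for named genes are given next. Nfasc, the cell adhesion protein neurofascin of the axon initial segment and the node (mm9 chr1:134461268-134638374, minus strand), was at 1.13, 1.83 and 2.17 CPM at T1, between 8.85 and 12.6 CPM at T2, and at 141 and 110 CPM at T3 (6.20 ± 0.23, adjusted p = 0.000191). The T3 libraries were close to each other. Gria4, an AMPA receptor subunit (mm9 chr9:4417899-4796234, minus strand), was at or under 3 counts in each T1 library (0.0870, 0.153 and 0 CPM) and at 37.5 and 9.13 CPM at T3 (adjusted p = 0.0108). The mean of the T3 libraries was at least 104-fold higher when T1 is set at 3 counts in each library. T3 replicate 4 alone would not reach that bound. At T2 Gria4 stood between 0.187 and 0.645 CPM, so that most of its level appeared only in the T3 libraries. Rph3a, rabphilin, which binds vesicles during release, was at 0.261, 0.916 and 0.186 CPM at T1, at 8.50 to 13.9 CPM at T2 and at 36.9 and 21.6 CPM at T3 (6.04 ± 0.49, adjusted p = 0.00433). Nrxn3, a neurexin, an adhesion protein of the presynaptic side, was at 0.0870, 0.458 and 0.0619 CPM and then at 13.1 and 5.05 CPM (5.50 ± 0.69, adjusted p = 0.0135). Kcnma1, the BK potassium channel opened by calcium, was at 0.783, 0.687 and 1.18 CPM and then at 21.3 and 15.4 CPM (4.37 ± 0.30, adjusted p = 0.00291). All these genes stood higher in T3 replicate 1 than in replicate 4.

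Of the other genes among the 12 largest rises, Phactr3, a phosphatase and actin regulator, Fry, a partner of NDR kinases, Ano4, of the anoctamin family, and the orphan receptor Gpr149 were also higher in T3 replicate 1. Phactr3 was at 0.433 to 0.839 CPM at T1 and at 21.6 and 7.84 CPM at T3, and Fry at 1.04 to 2.06 CPM and then at 38.3 and 10.1 CPM. Ano4 (8.17 and 2.04 CPM at T3) and Gpr149 (13.5 and 1.40 CPM at T3) had at most 3 counts in each T1 library. Their T3 means gave rises of at least 22.7-fold and 33.1-fold, bounds that T3 replicate 4 alone would not reach. The 3 genes left had the opposite order. Like Nrxn3, they passed the filter on low counts through the T3 libraries alone, so that only a rise could be called. Dhrs7c, a dehydrogenase of the short-chain family, was at 1.83 CPM in T3 replicate 1 and 23.3 CPM in replicate 4, Igfbp7, a secreted binding protein of insulin-like growth factors, at 1.67 and 15.2 CPM, and Klhdc7a, of the kelch family, at 5.75 and 19.4 CPM, against at most 0.804 CPM in any T1 library of the 3 genes. Of the 12 genes 3 kept the call without T1 replicate 1, 3 without T1 replicate 2, 5 without T1 replicate 3, and 12 without either T3 library.

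Of 39 tested genes of glutamate receptors and the postsynaptic density (50 in the files), 9 rose (23.1%, against 4.2% of all genes) and 1 fell (2.56%, against 2.3%). The median log2 fold change was 0.42. Gria3, an AMPA receptor subunit, was at 10.7, 12.7 and 9.47 CPM at T1 and at 56.5 and 54.2 CPM at T3 (2.37 ± 0.16, adjusted p = 0.00291). The T3 libraries agreed closely on this scale. Per length, in the FPKM deposited by the authors, Gria3 stood at 1.73, 1.96 and 2.64 at T1 and at 12.2 and 6.72 at T3, so that the T3 libraries were further apart than in the counts. On the same FPKM scale Gria2, which makes AMPA receptors impermeable to calcium, was the highest of the 4 subunits in every T1 and T3 library, at 20.5, 24.1 and 14.2 at T1 and 36.8 and 10.7 at T3, and Gria1 was listed at 0 in each of them but T3 replicate 4, where it was at 0.0237. Gria4 reached 5.09 and 1.02 FPKM at T3. Dlgap1, a scaffold protein of the postsynaptic density, was at 0.957, 1.45 and 0.804 CPM and then at 19.6 and 8.91 CPM (3.78 ± 0.42, adjusted p = 0.0111). Grik3, a kainate receptor subunit, had at most 3 counts in each T1 library and 7.09 and 1.18 CPM at T3. Its T3 mean gave a rise of at least 18.4-fold, which T3 replicate 4 alone would not reach. Lrrtm3, an adhesion protein of excitatory synapses, rose by 2.18 on the log2 scale and Cacng8, an auxiliary AMPA receptor subunit, by 1.76. The list had 1, 1 and 3 rises without T1 replicates 1, 2 and 3, 7 without T3 replicate 1 and 15 without T3 replicate 4.

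Of 15 tested genes of GABA and glycine signalling (30 in the files) 2 rose (13.3%, against 4.2% of all genes) and 1 fell (6.67%, against 2.3%). The median log2 fold change was 0.06. Gabra2, a GABA-A receptor subunit, was at 3.13, 3.66 and 3.03 CPM at T1 and at 7.09 and 15.8 CPM at T3 (1.83 ± 0.36, adjusted p = 0.0326). The GABA-B receptor subunit Gabbr1 fell from 279, 295 and 287 CPM to 198 and 130 CPM (-0.77 ± 0.18, adjusted p = 0.04996), a call at the threshold that was lost with RLE scaling, upper quartile scaling, limma-voom and the filter of at least 10 counts. The call of Gabra2 was lost with limma-voom. Of the 7 called genes of glutamate and GABA transmission given with values, Gria4 apart, 1 kept the call without T1 replicate 1, 1 without T1 replicate 2 and 2 without T1 replicate 3, while Grik3 lost it without T3 replicate 1 and Cacng8 without T3 replicate 4.

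Genes of vesicle release moved in both directions. Of 39 tested genes (48 in the files) 8 rose (20.5%, against 4.2% of all genes) and 3 fell (7.69%, against 2.3%). The median log2 fold change was 0.37. The complexins, which clamp and trigger vesicle fusion, moved apart. Cplx1 was at 24.6, 31.2 and 32.4 CPM at T1 and at 91.3 and 64.2 CPM at T3 (1.44 ± 0.19, adjusted p = 0.0143). Cplx2 was at 146, 149 and 150 CPM and then at 72.8 and 83.9 CPM (-0.89 ± 0.11, adjusted p = 0.0135). The SV2 family of vesicle proteins did likewise. Sv2a went from 5.83, 6.56 and 4.70 CPM to 12.9 and 16.8 CPM (1.42 ± 0.23, adjusted p = 0.0209), and Sv2c from 69.8, 74.5 and 43.2 CPM to 10.3 and 4.94 CPM (-2.97 ± 0.36, adjusted p = 0.0135). No T3 library overlapped a T1 library in these 4 genes, as in every called gene. Of 42 tested genes of voltage-gated channels (59 in the files) 7 rose (16.7%) and 2 fell (4.76%), with a median log2 fold change of 0.43. Kcnq5, a potassium channel of the M current, rose from 4.53, 4.27 and 5.01 CPM to 11.5 and 14.7 CPM (1.54 ± 0.22, adjusted p = 0.0169), and Scn3b, an auxiliary sodium channel subunit, from 11.7, 11.4 and 12.4 CPM to 24.3 and 22.9 CPM (1.03 ± 0.15, adjusted p = 0.0177). The auxiliary calcium channel subunits moved apart, Cacna2d3 from 0.522, 0.534 and 0.619 CPM to 3.25 and 7.19 CPM (3.21 ± 0.44, adjusted p = 0.0158) and Cacna2d1 from 283, 329 and 329 CPM to 152 and 164 CPM (-0.95 ± 0.12, adjusted p = 0.0143). Cacna2d3 passed the filter on low counts through the T3 libraries alone, so that only a rise could be called. Without T1 replicates 1, 2 and 3 the rises numbered 1, 1 and 1 in the vesicle list and 1, 1 and 1 in the channel list. Without T3 replicate 1 they were 7 and 7, and without T3 replicate 4 they were 12 and 15.

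Of 37 tested genes of the neuronal cytoskeleton and axon growth (43 in the files) 5 rose and 1 fell, with a median log2 fold change of 0.25. Ank3, ankyrin G, which anchors neurofascin and sodium channels at the axon initial segment, was at 24.6, 29.6 and 19.7 CPM at T1 and at 66.7 and 70.2 CPM at T3 (1.51 ± 0.17, adjusted p = 0.0124). The T3 libraries lay close together, as for Nfasc. Cntn1, an axonal adhesion protein, was at 348, 463 and 267 CPM and then at 2149 and 680 CPM (2.01 ± 0.44, adjusted p = 0.0434), a spread at T3 wider than the whole T1 range. Cntn2, its relative, was at 0, 0 and 0.247 CPM and then at 1.67 and 2.04 CPM (4.15 ± 0.81, adjusted p = 0.0320). It passed the filter on low counts through the T3 libraries alone, so that only a rise could be called. L1cam, an adhesion protein of growing axons, went from 1.31, 0.992 and 1.11 CPM to 5.00 and 3.22 CPM (1.90 ± 0.33, adjusted p = 0.0257). Dclk1, a kinase related to doublecortin, fell from 381, 413 and 373 CPM to 267 and 241 CPM (-0.58 ± 0.12, adjusted p = 0.0345). Without T1 replicates 1, 2 and 3 the list had 1, 1 and 2 rises, and without T3 replicate 1 or 4 it had 6 and 10, the call of Dclk1 being lost without T3 replicate 4.

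Among 30 tested neurogenic transcription factors (46 in the files) 2 rose (6.67%, against 4.2% of all genes) and 3 fell (10%, against 2.3%). Neurod1, which drives neuronal differentiation, was at 0.957, 0.916 and 0.928 CPM at T1 and at 4.67 and 6.44 CPM at T3 (2.59 ± 0.30, adjusted p = 0.0124). Gsx1, a homeobox factor of ventral progenitors, was at 1.31, 0.992 and 0.433 CPM and then at 11.2 and 5.48 CPM (3.27 ± 0.48, adjusted p = 0.0177). Pou3f4 (60.8, 63.0 and 60.6 CPM, then 31.9 and 35.1), Meis2 (156, 152 and 132 CPM, then 87.8 and 78.0) and Nfib (509, 582 and 508 CPM, then 339 and 319), all factors of the developing forebrain, fell by 0.84, 0.79 and 0.66 on the log2 scale. Among 19 tested genes of interneuron subtypes and neuropeptides (36 in the files) 3 rose and 3 fell (15.8% each). The receptors of a chemokine that guides migrating interneurons fell, Cxcr4 from 13.1, 13.8 and 15.2 CPM to 6.75 and 3.65 CPM (-1.38 ± 0.28, adjusted p = 0.0349) and Cxcr7 from 109, 126 and 174 CPM to 68.8 and 45.3 CPM (-1.22 ± 0.25, adjusted p = 0.0348). The granins Chga and Chgb, proteins of dense-core vesicles, rose, Chga by 1.14 (20.3 and 16.0 CPM at T3) and Chgb by 2.18 on the log2 scale (47.8 and 14.1 CPM at T3), and Lhx8, a factor of cholinergic neurons, by 2.28. Of the 10 calls given here for these 2 lists none held without T1 replicate 1 or 2 and only that of Meis2 without T1 replicate 3. That of Chgb was lost without T3 replicate 1 and that of Lhx8 without T3 replicate 4.

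Notch receptors on a progenitor, activated by Delta ligands on its neighbours, keep Hes and Hey repressors on and hold back differentiation. Of 24 tested Notch pathway genes (26 in the files) 7 fell (29.2%, against 2.3% of all genes) and 1 rose, with a median log2 fold change of -0.29. The ligand Dll1 (mm9 chr17:15504318-15513836, minus strand) was at 470, 458 and 457 CPM at T1, between 315 and 373 CPM at T2, and at 252 and 243 CPM at T3 (-0.86 ± 0.11, adjusted p = 0.0142). The groups were tight and the T2 libraries lay between them. The receptor Notch3 went from 110, 104 and 102 CPM to 61.8 and 65.6 CPM (-0.69 ± 0.10, adjusted p = 0.0184). Of the effectors, Hes1 went from 58.6, 56.6 and 66.6 CPM to 30.4 and 34.4 CPM (-0.87 ± 0.14, adjusted p = 0.0189) and Hey1 from 138, 117 and 181 CPM to 83.9 and 57.4 CPM (-1.003 ± 0.23, adjusted p = 0.0487). Dtx4, of the Deltex family of Notch regulators, fell by 0.55 on the log2 scale. Dll3, a ligand that acts within the cell, was the gene that rose, from 11.3, 14.9 and 8.72 CPM to 37.9 and 24.5 CPM (1.47 ± 0.27, adjusted p = 0.0280). The 7 falls became 3 with upper quartile scaling, 3 with limma-voom and 11 with DESeq2, and 0, 0 and 1 without T1 replicates 1, 2 and 3. They were 8 without T3 replicate 1 and 4 without T3 replicate 4.

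Of 21 tested genes of progenitors and radial glia (26 in the files) 4 fell (19.0%, against 2.3% of all genes) and none rose. The median log2 fold change was -0.34. Hopx, a homeodomain protein of radial glia, was at 21.1, 21.5 and 17.3 CPM at T1 and at 6.42 and 4.72 CPM at T3 (-1.79 ± 0.22, adjusted p = 0.0135). Vcam1, an adhesion protein of the stem cell niche, was at 139, 116 and 124 CPM and then at 53.5 and 36.3 CPM (-1.45 ± 0.18, adjusted p = 0.0135), and Sox3, a SoxB1 factor, at 370, 362 and 427 CPM and then at 195 and 165 CPM (-1.07 ± 0.14, adjusted p = 0.0143). Hes1, given above, was the fourth. The most used markers did not pass the test. Nes was at 1360, 1377 and 1433 CPM at T1 and 1014 and 1303 CPM at T3 (adjusted p = 0.431), Vim at 2268, 2203 and 2962 CPM and then 1995 and 2300 CPM (adjusted p = 0.639), and Sox2 at 453, 447 and 412 CPM and then 380 and 264 CPM (adjusted p = 0.212). Pax6 stood at -0.52 (adjusted p = 0.0569) and Fabp7 at -0.13 (adjusted p = 0.712) on the log2 scale. Dll1, Hopx, Vcam1 and Sox3 kept the call without T1 replicate 3, and no Notch or progenitor gene kept it without T1 replicate 1 or 2. Dtx4 lost it without T3 replicate 1 and Hey1 without T3 replicate 4.

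**Figure D4:**
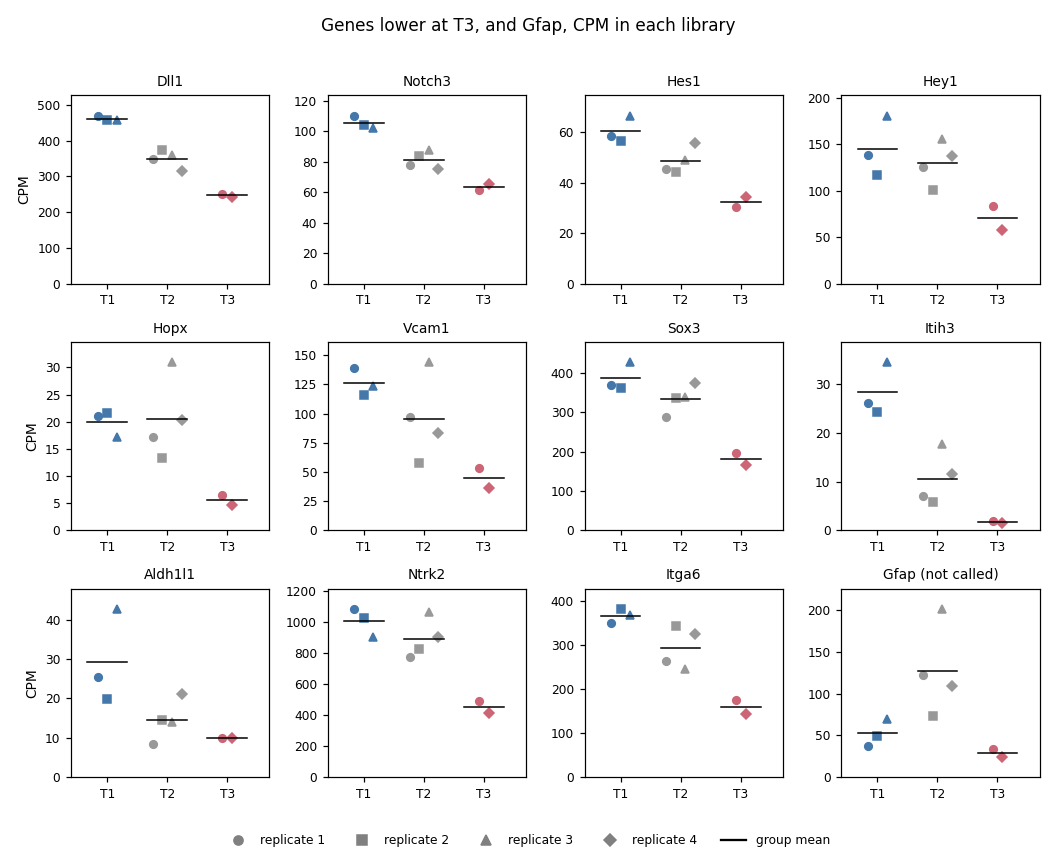
CPM (vertical axis, from 0) of 12 progenitor, Notch, glial, receptor and adhesion genes in each T1, T2 and T3 library, with 1 symbol a replicate number and a black bar at the group mean. The T3 libraries lie below all T1 libraries in each panel, as with Dll1 at 252 and 243 CPM against 457 to 470 CPM, and Gfap, which was not called, is highest in T2 libraries.

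Of 34 tested astrocyte genes (42 in the files) 5 fell (14.7%, against 2.3% of all genes) and 1 rose (2.94%, against 4.2%). The median log2 fold change was -0.26. Itih3, a protein that binds hyaluronan (mm9 chr14:31721759-31736946, minus strand), was at 26.1, 24.3 and 34.5 CPM at T1, between 5.80 and 17.6 CPM at T2, and at 1.92 and 1.40 CPM at T3 (-4.03 ± 0.28, adjusted p = 0.00291). Aldh1l1, a folate enzyme used to mark astrocytes, was at 25.3, 19.8 and 42.7 CPM and then at 10.0 and 9.77 CPM (-1.53 ± 0.34, adjusted p = 0.0446). Bcan, the matrix proteoglycan brevican, was at 2759, 2490 and 2469 CPM and then at 1554 and 1424 CPM (-0.75 ± 0.14, adjusted p = 0.0268), and Aldoc, the brain aldolase, at 1926, 1694 and 2408 CPM and then at 1129 and 1148 CPM (-0.79 ± 0.18, adjusted p = 0.0468). Fgfbp3, a carrier of FGF, fell by 0.82 on the log2 scale. The zinc transporter Slc39a12 rose, from 5.92, 6.10 and 6.25 CPM to 20.3 and 13.9 CPM (1.53 ± 0.22, adjusted p = 0.0169). Gfap, the intermediate filament of astrocytes, was at 37.7, 49.1 and 69.7 CPM at T1, 123, 73.0, 202 and 110 CPM at T2 and 33.4 and 23.8 CPM at T3. Its change from T1 to T3 did not pass the test (-0.83 ± 0.27, adjusted p = 0.129), and all T2 libraries lay above those of both other groups. S100b, a calcium-binding protein of glia, stood at 61.0, 56.3 and 84.3 CPM and then at 98.7 and 121 CPM (0.74 ± 0.19, adjusted p = 0.0669). The falls in the astrocyte list were 1 without each of T1 replicates 1, 2 and 3, the gene kept being Itih3. They were 10 without T3 replicate 1 and 3 without T3 replicate 4, and 3 with upper quartile scaling.

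The 12 largest falls held secreted proteins and receptors. Frzb and Apcdd1 are both inhibitors of Wnt signalling. Frzb was at 85.4, 72.8 and 54.0 CPM at T1 and at 7.42 and 9.02 CPM at T3 (-3.07 ± 0.24, adjusted p = 0.00407), and Apcdd1 at 382, 345 and 445 CPM and then at 76.7 and 48.7 CPM (-2.60 ± 0.23, adjusted p = 0.00518). Adcyap1r1, the receptor of the peptide PACAP, was at 276, 191 and 243 CPM and then at 46.4 and 30.2 CPM (-2.59 ± 0.24, adjusted p = 0.00590). Rnase1, a secreted ribonuclease, was at 67.8, 66.0 and 71.6 CPM and then at 14.7 and 4.83 CPM (-2.75 ± 0.38, adjusted p = 0.0158), while the T2 libraries ranged from 37.9 to 103 CPM. Actc1, cardiac actin, went from 21.7, 19.7 and 12.002 CPM to 2.08 and 1.93 CPM, and Kcnh7, a potassium channel of the ERG type, from 9.05, 7.02 and 5.07 CPM to 0.750 and 0.537 CPM. Tnfrsf14, a receptor of the TNF family, was at 3.48, 2.67 and 3.09 CPM at T1 and at no more than 3 counts in either T3 library, at least 10.8-fold lower. Cdcp1, Dsc1 and Fam129a were at 7.24 CPM or less in each T1 library and at 1.40 CPM or less in each T3 library. With T1 replicate 1 left out 4 of the 12 kept the call, with T1 replicate 2 left out 4 did, and with T1 replicate 3 left out 8 did. All 12 kept it without either T3 library.

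Receptors and responses to the factors in the media were examined next. Of 34 tested receptor tyrosine kinase and neurotrophin genes (47 in the files) 6 fell (17.6%, against 2.3% of all genes) and 2 rose (5.88%, near the 4.2%). The median log2 fold change was -0.20. Ntrk2, the BDNF receptor TrkB (mm9 chr13:58907957-59235331, plus strand), was at 1082, 1023 and 904 CPM at T1, between 774 and 1064 CPM at T2, and at 486 and 408 CPM at T3 (-1.13 ± 0.15, adjusted p = 0.0143). Ngfr, the neurotrophin receptor p75, rose from 0.174, 0.382 and 0.371 CPM to 1.17 and 6.98 CPM (3.65 ± 0.81, adjusted p = 0.0446), the higher value in T3 replicate 4. Ptn, the growth factor pleiotrophin, fell from 2360, 2250 and 2316 CPM to 1350 and 1192 CPM (-0.83 ± 0.13, adjusted p = 0.0199). The ephrin receptors Ephb2 and Ephb3 fell by 1.32 and 0.87 on the log2 scale. Erbb3, a neuregulin receptor, rose from 1.13, 1.68 and 1.24 CPM to 15.01 and 3.87 CPM (2.85 ± 0.55, adjusted p = 0.0319). Of the 23 tested genes of ERK feedback and the growth factor response 2 rose (8.70%), Ccnd1 and Myc, and 1 fell (4.35%). The gene that fell was Il17rd, a membrane inhibitor of FGF signalling, from 314, 359 and 226 CPM to 110 and 76.2 CPM (-1.65 ± 0.24, adjusted p = 0.0177). The ERK targets Etv5 (118, 115 and 159 CPM, then 188 and 520), Spry1 (43.8, 43.7 and 37.4 CPM, then 59.0 and 170) and Dusp6 (48.7, 42.0 and 36.1 CPM, then 58.2 and 128) did not pass the test, with adjusted p of 0.0668, 0.0627 and 0.0683. In these 3 genes both T3 libraries lay above T1, and replicate 4 lay far above replicate 1.

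Of 24 tested immediate early and activity genes 3 rose (12.5%, against 4.2% of all genes). In this list 2 fell (8.33%, against 2.3%), Ntrk2 among them. Egr1, an early response factor, fell from 105, 90.7 and 129 CPM to 45.1 and 51.0 CPM (-1.14 ± 0.17, adjusted p = 0.0184). Npas4, a factor that neuronal activity induces, was at 0.609, 0.534 and 0.433 CPM at T1 and at 1.75 and 3.65 CPM at T3 (2.37 ± 0.46, adjusted p = 0.0316). Atf3, a stress-induced factor, went from 0.609, 0.916 and 0.804 CPM to 2.75 and 7.19 CPM (2.67 ± 0.48, adjusted p = 0.0265), and Nr4a1, an orphan nuclear receptor, from 28.7, 28.8 and 28.6 CPM to 38.9 and 52.6 CPM (0.71 ± 0.16, adjusted p = 0.0446). Of the 11 called genes of receptors and responses given with values, Ccnd1 and Myc apart, Ntrk2, Il17rd and Egr1 kept the call without T1 replicate 3 and none without T1 replicate 1 or 2. Ngfr, Npas4 and Nr4a1 lost it without T3 replicate 4. The 6 falls of the receptor list were 0, 0 and 2 without T1 replicates 1, 2 and 3.

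Among 30 tested Wnt genes 1 rose (3.33%, against 4.2% of all genes) and 2 fell (6.67%, against 2.3%), and among 28 tested Id, BMP and TGF-beta genes none rose and 2 fell (7.14%). With counts this small, nothing is read from these shares. The ligands Wnt7b (123, 112 and 116 CPM, then 65.5 and 60.6) and Wnt5a (312, 346 and 303 CPM, then 176 and 180) fell by 0.85 and 0.81 on the log2 scale, and both T3 libraries lay far below T1. Rnf43, which removes Wnt receptors from the membrane, rose from 1.39, 2.59 and 0.619 CPM to 13.9 and 7.73 CPM (2.88 ± 0.52, adjusted p = 0.0267), with T2 libraries at 6.36 to 8.07 CPM. Bmpr1b, a BMP receptor, fell from 81.1, 98.8 and 97.1 CPM to 57.0 and 47.6 CPM (-0.78 ± 0.14, adjusted p = 0.0256), and Smad1, which carries its signal, from 94.2, 101 and 106 CPM to 71.0 and 65.0 CPM (-0.53 ± 0.11, adjusted p = 0.0363). Of these 5 calls only that of Wnt7b held without T1 replicate 3 and none without T1 replicate 1 or 2, and that of Smad1 was lost without T3 replicate 4.

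T3 cells grew on laminin. Of 44 tested genes of the extracellular matrix, laminins and integrins (57 in the files) 3 rose (6.82%, against 4.2% of all genes) and 6 fell (13.6%, against 2.3%). The median log2 fold change was 0.02. Itga6 and Itga7, integrin chains that bind laminin, fell, Itga6 from 350, 383 and 369 CPM to 175 and 144 CPM (-1.17 ± 0.13, adjusted p = 0.0114) and Itga7 from 10.4, 8.62 and 10.4 CPM to 3.84 and 2.36 CPM (-1.61 ± 0.28, adjusted p = 0.0257). Nid1, nidogen, which links laminin to collagen, fell from 84.0, 95.6 and 43.4 CPM to 20.3 and 18.8 CPM (-1.89 ± 0.33, adjusted p = 0.0255). The integrin chains Itga8 (0.609, 0.916 and 0.557 CPM, then 3.50 and 3.44) and Itga9 (15.8, 21.0 and 19.0 CPM, then 33.1 and 31.1) rose by 2.35 and 0.82 on the log2 scale. In both the T3 libraries were nearly equal. The 6 falls were 0, 0 and 2 without T1 replicates 1, 2 and 3, and 7 without either T3 library.

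Of 28 tested p53 targets and cell death genes 7 rose (25%, against 4.2% of all genes) and 1 fell (3.57%, against 2.3%). Of 33 targets of ATF4 and the unfolded protein response 6 rose (18.2%) and none fell. The medians were 0.35 and 0.46 on the log2 scale. Eda2r, a death receptor of the TNF family and p53 target, was at 38.9, 40.1 and 43.5 CPM at T1 and at 84.7 and 114 CPM at T3 (1.32 ± 0.15, adjusted p = 0.0114). Aen, a nuclease induced by p53, was at 48.2, 49.98 and 46.5 CPM and then at 75.3 and 89.8 CPM (0.81 ± 0.12, adjusted p = 0.0177). Bcl2l11, the death factor Bim, was the one that fell, from 75.5, 90.2 and 106 CPM to 30.4 and 27.5 CPM (-1.61 ± 0.17, adjusted p = 0.00970). Sesn2, which restrains growth signalling and stands in both lists, went from 59.9, 60.0 and 49.1 CPM to 104 and 113 CPM (0.98 ± 0.13, adjusted p = 0.0142). Trib3, a pseudokinase induced by ATF4, was at 0.522, 0.458 and 0.681 CPM and then at 4.42 and 8.48 CPM (3.53 ± 0.41, adjusted p = 0.0124), and the amino acid transporter Slc7a1 at 26.3, 39.1 and 36.7 CPM and then at 88.0 and 96.4 CPM (1.47 ± 0.17, adjusted p = 0.0124). Mthfd2, a mitochondrial folate enzyme, Chac1, which degrades glutathione, and Atf5, a stress factor, rose by 2.04, 2.60 and 0.88 on the log2 scale. In 24 of the 28 p53 genes and 23 of the 33 ATF4 genes T3 replicate 4 was above replicate 1. Without T1 replicates 1, 2 and 3 the rises were 0, 0 and 2 in the p53 list and 0, 0 and 3 in the ATF4 list. Without T3 replicate 1 they were 13 and 12 and without T3 replicate 4 they were 7 and 5, the call of Atf5 being among those lost.

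Of 20 tested interferon and antigen presentation genes (32 in the files) 5 rose (25%, against 4.2% of all genes) and 2 fell (10%, against 2.3%). Ifit2 (17.0, 12.4 and 12.5 CPM, then 28.8 and 33.1), Rsad2 (7.31, 9.23 and 10.8 CPM, then 19.8 and 22.98) and Xaf1 (1.39, 1.68 and 1.92 CPM, then 4.59 and 4.72), all induced by interferon, rose by 1.18, 1.26 and 1.50 on the log2 scale. Tap1, the peptide transporter of antigen presentation, was at 0.371 to 0.534 CPM at T1 and at 1.58 and 3.54 CPM at T3, and H2-D1, a class I histocompatibility gene whose reads can also fit its close relatives, was at 0.610 to 1.31 CPM and then at 2.92 and 3.87 CPM. Ifih1, a sensor of double-stranded RNA, fell from 2.35, 2.29 and 2.23 CPM to 0.584 and 0.429 CPM (-2.10 ± 0.38, adjusted p = 0.0274). None of these 6 calls held without T1 replicate 1, 2 or 3, and those of Ifih1, Tap1 and H2-D1 were lost without T3 replicate 4.

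Markers of other cell types were read for the whole of each list. Olig1 and Olig2, factors of ventral progenitors and of the oligodendrocyte lineage, were among the abundant genes, Olig1 at 2732, 2809 and 2682 CPM at T1 and 3338 and 4240 CPM at T3 (0.50 ± 0.15, adjusted p = 0.0975) and Olig2 at 1180, 1313 and 1246 CPM and then 1393 and 1628 CPM (0.31 ± 0.13, adjusted p = 0.221). Of 20 tested oligodendrocyte lineage genes (30 in the files) 1 rose (5%, near the 4.2% of all genes) and none fell. The gene was Neu4, a sialidase, at 0.229 to 0.435 CPM at T1 and at 6.42 and 2.25 CPM at T3. Mbp and Sox10 stayed under 1 CPM in every library and were not tested. The summed level of this list was 6993 to 7674 CPM at T1 and 9078 and 8395 CPM at T3. Of 16 microglia and macrophage genes 2 passed the filter on low counts, and the others had at most 3 counts in any library. Of 37 tested lysosome genes 3 fell (8.11%, against 2.3% of all genes) and none rose, and 1 fell with upper quartile scaling, limma-voom or the filter of at least 10 counts. Among the 3 were Hexa, a lysosomal hexosaminidase (177, 159 and 172 CPM, then 92.4 and 121), and Lamp2, a membrane protein of lysosomes (525, 521 and 588 CPM, then 372 and 369). Of 18 endothelial and pericyte genes 3 were tested and of 15 fibroblast genes 6, with none called, and their summed levels were 6.94 to 8.53 CPM and 207 to 288 CPM at T1 and 6.92 to 10.3 CPM and 246 to 317 CPM at T3. The endothelial markers Pecam1, Cdh5 and Cldn5 had at most 8, 0 and 1 counts in any T1 or T3 library. The fibroblast markers Col1a1, Col1a2, Dcn and Lum had at most 9, 0, 2 and 0. Of 5 tested genes of neural crest, Schwann cells and ependyma 2 rose, Ngfr and Pmp22, a membrane protein of myelin, which went from 18.3, 17.8 and 19.5 CPM to 38.0 and 62.3 CPM (1.47 ± 0.21, adjusted p = 0.0173).

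The remaining lists had few calls. Among 34 tested genes of cholesterol and fatty acid synthesis 1 rose (2.94%, against 4.2% of all genes) and none fell. The gene was Sqle, squalene epoxidase, which went from 269, 338 and 270 CPM to 464 and 559 CPM (0.85 ± 0.15, adjusted p = 0.0259). Of 32 tested glycolysis and hypoxia genes none rose and 2 fell (6.25%, against 2.3% of all genes), Aldoc and P4ha2. P4ha2, a prolyl hydroxylase of collagen, was at 1.39, 2.21 and 2.91 CPM at T1. It was at no more than 3 counts in either T3 library, at least 7.59-fold lower. Of 43 tested genes of ribosome biogenesis 2 rose (4.65%, near the 4.2% of all genes), Myc and Srm, spermidine synthase, from 42.9, 41.1 and 42.4 CPM to 64.0 and 76.2 CPM (0.77 ± 0.12, adjusted p = 0.0196). Of 38 tested ELAV and polyadenylation factors 2 rose (5.26%, near the 4.2% of all genes), both regulators of splicing. Celf5 went from 1.83, 1.53 and 1.36 CPM to 8.005 and 9.34 CPM (2.50 ± 0.27, adjusted p = 0.0101) and Mbnl2 from 60.3, 68.0 and 50.5 CPM to 92.0 and 87.7 CPM (0.63 ± 0.14, adjusted p = 0.0439). Of 35 tested chromatin genes 3 rose (8.57%, against 4.2% of all genes), and with limma-voom 0 of them was called. Uhrf1, which maintains DNA methylation behind the replication fork, rose by 1.70 on the log2 scale. Hmgb2, a chromatin protein of dividing cells, rose by 1.90 and Hdac9, a histone deacetylase, by 1.02. All 3 were higher in T3 replicate 4. Of the 12 called genes first given with values in these and the cell type lists none kept the call without T1 replicate 1 or 2 and Celf5 alone without T1 replicate 3. Hexa lost it without T3 replicate 1, and Lamp2, Hdac9 and Hmgb2 without T3 replicate 4.

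The T3 libraries differed from each other along the lines of these lists. T3 replicate 4 was above replicate 1 in 6198 of all 12499 genes, in 352 of the 525 that rose and in 82 of the 287 that fell. It was above in all members of the mitosis and replication lists, and below in 33 of 39 glutamate receptor genes, 34 of 42 channel genes, 32 of 39 vesicle genes, 29 of 37 cytoskeleton genes and 18 of 20 oligodendrocyte lineage genes. With 2 libraries the spread at T3 rests on a single difference, whose source was not tested.

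**Figure D5:**
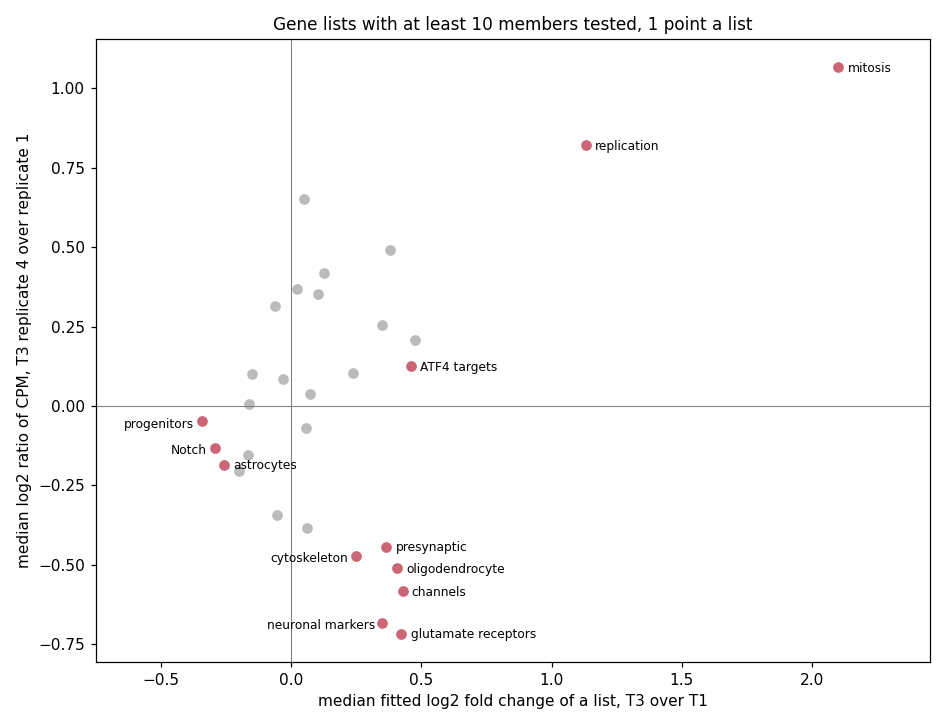
Each point is a gene list with at least 10 members tested, with its median fitted log2 fold change from T1 to T3 (horizontal axis) and the median log2 ratio of CPM of T3 replicate 4 over T3 replicate 1 (vertical axis), and named lists are in red. The mitosis list (2.10 and 1.07) and the replication list (1.13 and 0.82) lie at the upper right, and the lists of neuronal function lie below 0 on the vertical axis, the glutamate receptors at -0.72.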

How the data were processed

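RNA-seq was done on polyA-selected RNA (TruSeq RNA v2) of the 12 samples. Per the labels and the submitters' processing notes, reads were called with CASAVA 1.8, aligned to mm9 with TopHat2 2.0.6 and Bowtie 0.12.7.0 and counted per gene with HTSeq 0.6.0 on the iGenomes annotation. DESeq2 1.0.0 is also listed. The strand setting is not given in the sources used here. The deposited counts per gene are raw and were used as they are. The authors' FPKM, normalised for length and depth, served only to set levels of different genes side by side. One T3 column carries a 2 beside its replicate number 4, which the sources do not explain. The 5 last entries of each count file name no gene and were left out, among them reads in no gene (17.6 to 23.1% in the 5 libraries) and reads with several alignments (27.5 to 33.3%).

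Counts of the 5 libraries were tested with edgeR 4.0.16 (TMM, filterByExpr, quasi-likelihood test, adjusted p under 0.05). SE is the absolute log2 fold change divided by the root of F. CPM was scaled by TMM over the 9 T1, T2 and T3 libraries. Alternatives were RLE and upper quartile scaling, no filter, at least 10 counts in every library, DESeq2, limma-voom, a fit of 9 libraries, the class of the library number (3 and 4 against 1 and 2, a grouping that no label gives and that was taken from earlier results of these data) as a covariate, and each library left out. The code was tested on simulated data. Where every library of a group had at most 3 counts, that floor per library, set against the mean CPM of the other group, gave the fold as a bound. Single libraries of the other group can fall short of such a bound. This floor covers counting error only. It was met at T1 by 23 called rises and at T3 by 3 called falls. These genes passed the filter on low counts through the other group alone, so that only that direction could be called. The same holds for other called genes whose lower group stayed under the cutoff of that filter in every library. Among the rises these include Cacna2d3, Chac1, Dhrs7c, Igfbp7, Klhdc7a, Neu4, Ngfr, Npas4, Nrxn3, Tap1 and Trib3. Cdcp1, Kcnh7 and Ifih1 are among the falls.

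The members and the lists were chosen with earlier results of these data known. Named genes were the 12 largest rises and 12 largest falls among called genes whose mean log2 CPM reached 1 and whose groups did not overlap, every neuronal and GABAergic marker, and up to 6 members of each other list by smallest p. Cell type markers were added to these, and some named genes are not reported here. Gene positions on mm9 are from GENCODE vM1 and promoter sequences from RefSeq on GRCm38.p6, and no coordinate was converted.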

Additional observations from a re-analysis of the deposited data

Results flagged for a closer look

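In 154 named genes the 4 T2 libraries were examined for a library that stood apart from the other 3, and 6 genes had one. Chance alone flags about 1 in 20 groups. T2 replicate 3 was the highest for Nid1 (109 CPM), Tubb3 (174 CPM) and Atf5 (27.5 CPM) and the lowest for Nrxn3 (1.01 CPM). T2 replicate 4 was the highest for Adcyap1r1 (183 CPM) and T2 replicate 2 for Rph3a (13.9 CPM). None of these libraries entered the T1 to T3 test. Groups of 2 or 3 libraries were not examined.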

How the results depend on the processing

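No paired analysis was possible because T1 and T3 share only replicate number 1. No gene called with all 5 libraries was called the other way under any alternative. Of 136 named genes called, 85 kept the call in every alternative that keeps all 5 libraries. Rises and falls over all genes numbered 989 and 643 with no filter on low counts, 957 and 630 in the fit of 9 libraries, and 989 and 756 with the class of the library number as a covariate, a grouping that no label gives. DESeq2 gave 786 rises and 570 falls, limma-voom 357 and 225, and the filter of at least 10 counts in every library 360 and 228. Among named genes, limma-voom lost the calls of Aldh1l1, Chgb, Cntn1, Dhrs7c, Dtx4, Erbb3, Fgfbp3, Gabbr1, Gabra2, Gpr149, H2-D1, Hdac9, Hexa, Hey1, Hmgb2, Igfbp7, Lamp2, Mbnl2, Ngfr, Nid1, Nr4a1, Rbl1, Tap1 and Uhrf1, and upper quartile scaling those of Aldoc, Dtx4, Fgfbp3, Gabbr1, Hexa, Hey1 and Lamp2. List members called numbered 238 higher and 93 lower with no filter, 241 and 107 with the covariate, and the falls were 82 in the fit of 9 libraries, 95 with DESeq2 and 35 with at least 10 counts in every library. For lists, in the order no filter, fit of 9, covariate, DESeq2 and at least 10 counts, cytoskeleton rises were 10, 11, 11, 10 and 3. In the order no filter, fit of 9, covariate and at least 10 counts, glutamate receptor rises were 17, 14, 17 and 4. In the order no filter, covariate, DESeq2 and at least 10 counts, channel rises were 15, 18, 11 and 2, astrocyte falls 9, 10, 10 and 2, and receptor kinase falls 11, 12, 10 and 3. ATF4 rises were 12, 15, 16 and 13 with no filter, the fit of 9, the covariate and DESeq2, and p53 rises 11 with no filter and with DESeq2. Notch falls were 11 with the covariate and with DESeq2, and 3 with at least 10 counts, with limma-voom and with upper quartile scaling. Astrocyte falls were 3 with limma-voom and with upper quartile scaling. With at least 10 counts vesicle rises were 5 and interferon rises 3, and limma-voom gave 3 interferon and 35 mitosis rises. With each library left out in turn, rises ranged from 7 to 1211 and falls from 10 to 860, members higher from 4 to 254 and lower from 1 to 110, and named genes past the threshold from 8 to 164. By list, rises ranged from 0 to 60 (mitosis), 0 to 47 (replication), 1 to 10 (cytoskeleton), 1 to 12 (vesicles), 1 to 15 (glutamate receptors), 1 to 15 (channels), 0 to 12 (ATF4), 0 to 13 (p53) and 0 to 8 (interferon), and falls from 0 to 8 (Notch), 1 to 10 (astrocytes), 0 to 7 (matrix) and 0 to 9 (receptor kinases). The causes were not tested.

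Genes that were not called changed sign where 1 T3 library was left out. With each library left out in turn, the log2 fold change ranged from -0.060 to 1.68 for Elavl3, from -0.53 to 0.032 for Mtap2 and from -0.79 to 0.19 for Tubb3, while Gad1 ranged from -0.59 to 0.43. Elavl3 passed the test, higher at T3, with no filter (adjusted p = 0.0355), with the covariate (0.0441) and without T3 replicate 4 (0.00274), and Tubb3, lower at T3, without T3 replicate 1 (0.00568). The value for Gad1 was -0.014 with no filter and -0.026 with limma-voom. With 2 T3 libraries of 8910724 and 11776141 counts, changes of low genes and of genes that differ between these libraries were not well resolved.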
